A study of Arabidopsis thaliana with 83 samples.

Results

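The glucosinolate biosynthesis genes AOP3 (AT4G03050), AT2G25450 and BCAT4 (AT3G19710) were followed through an auxin time course in 7 natural accessions of Arabidopsis thaliana. They were taken as the probe sets that the array annotation lists with 1 of these genes alone, which gave 1 probe set for each of these 3 genes, of 13350 genes that a probe set lists alone. Whole seedlings of Col-0, C24, Sha, Bay-0, Bur-0, Bl-1 and Fei-0 were measured at 4 labelled times, 0 h, 30 min, 1 h and 3 h, in 83 Affymetrix ATH1 arrays that form 28 groups of 3 arrays, with 2 for Fei-0 at 3 h. All groups were grown alike, as liquid cultures shaken at 22 °C under constant light for 7 days after 5 days of cold, with yellow-filtered light in the last 24 h. The series title names the auxin response, and the labels mention indole-3-acetic acid only in connection with the light filter. The 0 h arrays are the only untreated reference, since no label names mock-treated arrays at later times, nor the auxin dose. The 12 Bay-0 arrays are labelled with the ecotype Bay-0 and also as a recombinant inbred line, and were taken here as Bay-0.

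Glucosinolates are sulfur-rich defence compounds of the cabbage order, stored apart from the enzymes that split them when tissue is damaged. Those made from methionine are built by lengthening the amino acid's side chain, by assembling the sulfur-containing core, and by modifying the side chain, and natural accessions differ in the outcome of the first and last of these stages. BCAT4 encodes the aminotransferase that opens the chain elongation. AOP3 encodes a dioxygenase that forms hydroxyalkyl glucosinolates, its neighbour AOP2 forms alkenyl glucosinolates, and AT2G25450 encodes a dioxygenase that adds a hydroxyl group to an alkenyl side chain. Glucosinolates themselves were not measured here, so no chemical type can be assigned to these accessions.

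Values below are signals on the linear scale of the deposited table, in which every array was scaled to the same trimmed mean, and differences are on the log2(signal + 16) scale with the standard error (SE) of a limma model. A gene was called at an adjusted p under 0.05. Within a group, arrays correlated with each other at r = 0.975 to 0.993 over all probe sets. As signs of RNA quality, the GAPDH control had 3'/5' ratios between 0.847 and 1.47 in the group means and the actin control between 0.501 and 9.08. The actin ratio was 0.501 to 1.25 in the groups of C24, 0.61 to 0.922 in those of Bay-0 and 5.04 to 9.08 in those of Col-0, and its part in differences between accessions was not tested. Replicates are not stated to be separate cultures, so the p-values reflect only how these arrays vary, and that variation may be technical. The auxin-inducible genes GH3.3, LBD29 and HAT2 rose at every later time in the mean over accessions. Serial numbers in the labels run by accession and then by time, so neither can be told apart from an order of processing.

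AOP3 divided the accessions into a pair with strong signals and 5 with almost none. Across all times its signal was 215 to 775 in the 24 arrays of Bay-0 and Bl-1 (median 476) and 0.275 to 19.7 in the 59 arrays of the other 5 accessions (median 6.88). The groups did not overlap, and the lowest array of the first pair stood 10.9 times above the highest of the others. Within its own array the AOP3 signal lay at percentiles 86 to 96.6 of all probe sets in Bay-0 and Bl-1, and at percentiles 2.17 to 37.2 elsewhere. Of the 59 low arrays, 55 had a signal under 16, the constant added before taking logs, so their differences from each other carry little.

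At 0 h the AOP3 signals of Bay-0 were 631, 775 and 768, and those of Bl-1 were 424, 424 and 487. Every Bay-0 array stood above every Bl-1 array. The difference was 0.68 ± 0.21 (SE, n = 3 arrays each, adjusted p = 0.00592), or 1.63-fold between the means of 725 ± 81.4 and 445 ± 36.7 (SD). It was not called with a constant of 1 in place of 16 (0.70, adjusted p = 0.47) or without replicate 2 (0.60, adjusted p = 0.0733). Behind them Sha had a mean of 5.13 ± 3.25, Fei-0 4.21 ± 3.67, Col-0 3.12 ± 4.10, C24 2.73 ± 3.61 and Bur-0 2.32 ± 2.33 (SD, n = 3). These 5 could not be ordered, as their pairwise differences had adjusted p of 0.474 to 0.956. Sha, the accession with the largest of these small means at 0 h, had arrays of 19.6, 14.2 and 16.1 at 30 min.

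AT2G25450, in contrast, formed a graded series over the accessions. Fei-0 had the highest signals at 0 h, with arrays of 2018, 1600.4 and 2061, a mean of 1893 ± 255 (SD, n = 3). Bl-1 followed with 882, 759 and 592, and Col-0 with 451, 529 and 439.5. Bur-0 had 209, 254 and 194. These 4 accessions did not overlap with one another. Below them Bay-0 had 56.7, 74.7 and 65.2 and Sha 71.5, 48.4 and 70.8, which did overlap. C24 had 17.3, 14.7 and 13.8, near the added constant of 16, and all 3 arrays lay below those of every other accession. The mean of Fei-0 was 4.00 times that of Col-0. No fold is given against C24, whose signals lie at the added constant.

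Each step of this order was larger than the spread between arrays except that from Bay-0 to Sha. Fei-0 exceeded Bl-1 by 1.34 ± 0.17 (adjusted p = 3.27e-09), Bl-1 exceeded Col-0 by 0.62 ± 0.17 (adjusted p = 0.00463), and Col-0 exceeded Bur-0 by 1.06 ± 0.17 (adjusted p = 1.1e-06). The second of these steps rests on the brightest Bl-1 array, since without it the difference was 0.49 with adjusted p = 0.0528. Bur-0 exceeded Sha by 1.57 ± 0.17 (adjusted p = 1.3e-11), Bay-0 and Sha differed by 0.04 ± 0.17 (adjusted p = 0.887), and Sha exceeded C24 by 1.34 ± 0.17 (adjusted p = 2.21e-09). In all, 20 of the 21 pairs of accessions were called for AT2G25450, 11 of 21 for AOP3 and 14 of 21 for BCAT4. In a single pair, 17% to 45.8% of all probe sets were called.

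BCAT4 was bright everywhere, between percentiles 94.6 and 99.6 of its array in all 83 arrays, and its accessions lay closer together. At 0 h Sha had the highest signals, 2369, 2645 and 2079, followed by Bay-0 with 1803, 1937 and 1799. C24 had 1502, 1815 and 1590.3, Bl-1 1582, 1571 and 1719, and Fei-0 1579, 1340.1 and 1661. These 3 accessions overlapped and their pairs were not called, with adjusted p of 0.599 to 0.974. Col-0 with 1055, 1299 and 1196 and Bur-0 with 1163, 1066 and 1171 were lowest and also overlapped (adjusted p = 0.749). The means of Sha and Bur-0, 2364 ± 283 and 1133 ± 58.6 (SD, n = 3), differed 2.09-fold, by 1.04 ± 0.12 (adjusted p = 3.06e-11). The steps from Sha to Bay-0 (0.35, adjusted p = 0.0207) and from Fei-0 to Col-0 (0.36, adjusted p = 0.0167) each lost the call when any of 3 arrays was left out, with 0.26 to 0.33 (adjusted p = 0.0622 to 0.141) and 0.28 to 0.34 (adjusted p = 0.0623 to 0.116).

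**Figure D1:**
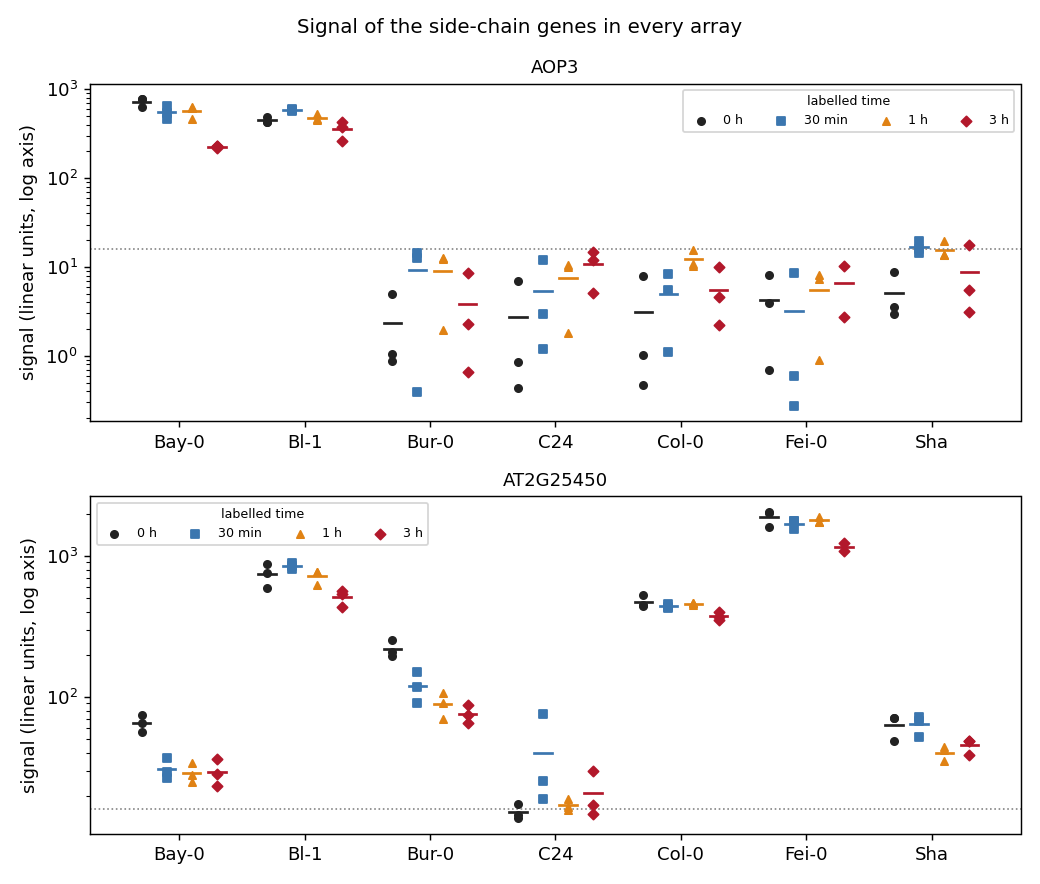
Signal of AOP3 and AT2G25450 in each of the 83 arrays (log axis), by accession and labelled time. Points are arrays, short lines are group means and the dotted line marks the added constant of 16. AOP3 lay at 215 to 775 in Bay-0 and Bl-1 and at or below 19.7 elsewhere, while AT2G25450 ran from 13.8 in C24 to 2061 in Fei-0.

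The F test over the 7 accessions called all 3 genes at each of the 4 times, but such calls were common, at 80.2%, 80.8%, 78.5% and 75.2% of all probe sets at 0 h, 30 min, 1 h and 3 h. AOP3 and AT2G25450 had ranges among the largest. The genes were chosen with earlier results of these data known, so their ranks and variance shares are descriptions and no independent support. Between the highest and the lowest accession AOP3 spanned 5.34, 5.00, 4.78 and 4.21 at these times and AT2G25450 5.93, 5.20, 5.77 and 5.03. At 0 h these were the 15th and the 9th largest ranges of the 15922 probe sets tested, of which 23.1% were called with a range of 1 or more. The dimmest 30% of probe sets had been removed by their mean over all arrays. Outside Bay-0 and Bl-1 AOP3 lay at a median percentile of 22.9, so its place among those tested rests on these 2 accessions. Its range and rank are therefore no independent result. BCAT4 spanned 1.04, 0.95, 0.72 and 1.24. A difference in level between accessions was thus called in arrays of separate times for all 3 genes, though the order of the BCAT4 means differed between times. Accession accounted for 96.6% of the variance of AOP3 and 96.6% of that of AT2G25450, against a median of 44.1% over all probe sets tested. For BCAT4 accession accounted for 32.1% and time for 52%, where time had a median of 6.87% over all probe sets and was smaller in 97.5% of them.

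The order of the accessions differed from gene to gene. Bl-1 was high for both side-chain genes, Bay-0 was first for AOP3 and among the lowest 3 for AT2G25450 at 0 h, and Fei-0 was first for AT2G25450 with AOP3 signals of 10.4 or lower at all times. Col-0 had almost no AOP3 signal and an AT2G25450 level above those of 4 accessions. Over the 28 group means the correlation of AOP3 with AT2G25450 was r = -0.02, that of AOP3 with BCAT4 r = -0.02 and that of AT2G25450 with BCAT4 r = -0.22. These are descriptions over groups that share accessions and times. Signals of each probe set were compared across accessions without the probe sequences or the accessions' genomes, which were not used here. Whether sequence differences between accessions at the probes lower a signal was therefore not tested for any of these genes. The order of the accessions for AT2G25450 is thus an order of signals, and its low signals were not shown to be low RNA levels. AOP2, the gene next to AOP3, is a transcribed pseudogene in the RefSeq annotation (TAIR10.1) and no probe set is listed with it alone in the annotation used here. Whether the AOP3 probe set also takes up AOP2 RNA was not tested. The other neighbour of AOP3 with a probe set, AT4G03040, had group means of 5.1 or lower in all accessions, Bay-0 and Bl-1 included.

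Over the time course BCAT4 fell in every accession at 3 h. Bay-0 went from 1803, 1937 and 1799 at 0 h to 736, 832 and 529.8 at 3 h, and Bl-1 from 1582, 1571 and 1719 to 801, 841 and 852. Fei-0 had 736 and 756 at 3 h, Col-0 679, 700.0 and 541, and C24 1055, 981 and 917. Sha had 1508, 1505 and 1552, and Bur-0 985, 749 and 833. In all 7 accessions every 3 h array lay below every 0 h array of that accession. How many of all probe sets separate in this way was not counted, here or for the other statements on overlap. The mean change over accessions was -0.86 ± 0.05 (SE of the model, without the spread between accessions, adjusted p = 1.62e-26), a size under 2-fold. BCAT4 and AT2G25450 were the 2 of 3 genes called in the mean at 3 h, and both were lower, against 43.8% of all probe sets called and 21.6% called lower.

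Most of the mean fall of BCAT4 came after 1 h. At 30 min its mean change was -0.05 ± 0.05 (adjusted p = 0.467), and at 1 h it was again -0.05 ± 0.05 (adjusted p = 0.387). These means set a rise in Bur-0 against lower values elsewhere. Without Bur-0 the mean change was called at both times, at -0.16 (adjusted p = 0.00753) and -0.16 (adjusted p = 0.00905). Every array of Bay-0 and Bl-1 lay below those of 0 h at 30 min, and so did every array of Bay-0, Bl-1 and Sha at 1 h. The step from 1 h to 3 h was -0.80 ± 0.05 (adjusted p = 1.21e-24). All 3 genes were lower at 3 h than at 1 h, where 37.6% of all probe sets were called and 18.6% were lower. None of the 3 was called in the mean at 30 min, where 23.6% of all probe sets were, and 2 of 3 were called at 1 h, where 31.3% were. Of these AT2G25450 was lower and AOP3 higher, the latter in a mean to which 5 accessions with signals near or under the added constant contribute. In bulk seedlings fewer cells of a type and less RNA per cell cannot be told apart.

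**Figure D2:**
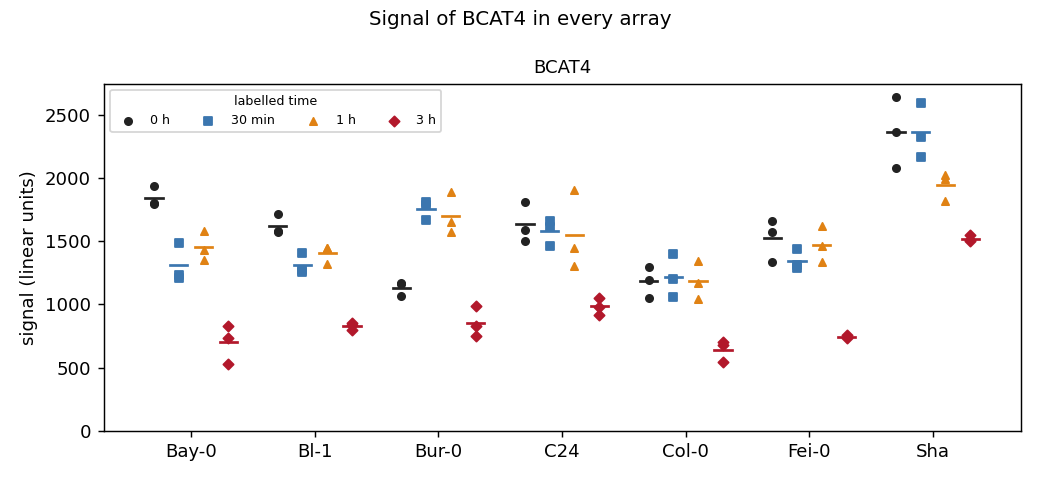
Signal of BCAT4 in each of the 83 arrays (linear axis from 0), by accession and labelled time. Points are arrays and short lines are group means. In each of the 7 accessions the 3 h arrays lie below the 0 h arrays, and in Bur-0 the 30 min and 1 h arrays lie above them.

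The sizes of these falls differed between accessions. The change at 3 h was -1.40 ± 0.12 in Bay-0 (adjusted p = 1.09e-15), -1.01 ± 0.13 in Fei-0 (adjusted p = 1.95e-08) and -0.95 ± 0.12 in Bl-1 (adjusted p = 2.3e-09). Col-0 followed at -0.87, C24 at -0.72 and Sha at -0.62, all called. Bur-0 had the smallest change, -0.41 ± 0.12 (adjusted p = 0.0055), which missed the threshold without 1 of its 3 h arrays (-0.32, adjusted p = 0.0654). Of all probe sets, 20.9% were called at 3 h in Bay-0, 11.1% in Fei-0, 17.1% in Bl-1, 18.4% in Col-0, 19.1% in C24, 16.2% in Sha and 31.4% in Bur-0. The test of the difference itself gave a range of 1.00 over the accessions (adjusted p = 8.93e-05), and 32.4% of all probe sets were called in that test.

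Bur-0 took a course of its own for BCAT4 at the early times. Its arrays rose from 1163, 1066 and 1171 at 0 h to 1791, 1815 and 1672 at 30 min and stood at 1891, 1650.3 and 1573 at 1 h. No array of the later pair of times overlapped with 0 h. The rise was 0.63 ± 0.12 after 30 min (adjusted p = 4.34e-05, with 14.1% of all probe sets called in Bur-0) and 0.58 ± 0.12 after 1 h (adjusted p = 0.000109, with 23.3% called). Bay-0 moved the other way at 30 min, to 1209.8, 1491 and 1233, by -0.49 ± 0.12 (adjusted p = 0.00179, with 14.9% called in Bay-0). Bl-1 also had all 30 min arrays below those of 0 h, at -0.30 ± 0.12, which was not called (adjusted p = 0.0739) but was called in a fit to the Bl-1 arrays alone (adjusted p = 0.00832), with array weights (adjusted p = 0.0207) and with the replicate number as a block (adjusted p = 0.0449). In the remaining 4 accessions the change at 30 min was -0.17 to 0.04 and none was called. The differences between accessions were called, with a range of 1.12 after 30 min (adjusted p = 1.22e-05, 29.9% of all probe sets called) and one of 0.92 after 1 h (adjusted p = 0.000311, 21.8% called).

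The order of the BCAT4 means therefore differed between times, though no pair of accessions was tested at a later time. Bur-0, the lowest for BCAT4 at 0 h, stood behind Sha alone at 30 min, with a mean of 1759 ± 76.5, and at 1 h, with 1705 ± 166, and behind Sha and C24 at 3 h with 856 ± 119.7 (SD, n = 3). Bay-0, behind Sha alone at 0 h with 1846 ± 78.6, was above Col-0 alone at 3 h with 699 ± 154. Sha kept the first place at all 4 times, with 2364 ± 283, 2367 ± 215, 1948 ± 109 and 1522 ± 26.1, and Col-0 stood last at the 3 later times.

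AT2G25450 fell at all 3 later times in Bur-0 and Bay-0. In Bur-0 the arrays went from 209, 254 and 194 at 0 h to 90.8, 149.8 and 118 at 30 min, 106, 70.0 and 90.2 at 1 h, then 88.0, 75.0 and 65.6 at 3 h. In Bay-0 they went from 56.7, 74.7 and 65.2 to 36.6, 26.5 and 29.5, then 33.9, 25.1 and 28.1, then 28.4, 23.5 and 36.5. In both accessions no later array overlapped with those of 0 h. The changes in Bur-0 were -0.81 ± 0.17 (adjusted p = 0.000353), -1.17 ± 0.17 (adjusted p = 1.51e-07) and -1.35 ± 0.17 (adjusted p = 2.46e-09). Those in Bay-0 were -0.80 ± 0.17 (adjusted p = 0.000519), -0.86 ± 0.17 (adjusted p = 0.000235, with 8.65% of all probe sets called) and -0.85 ± 0.17 (adjusted p = 0.000118). In Bur-0 the level kept going down over the means, and in Bay-0 the 3 changes lay within the SE of each other.

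The accessions with the highest AT2G25450 levels were called only at the last time. At 30 min Fei-0 had 1774, 1548 and 1778, at 1 h 1736, 1891 and 1733, and at 3 h 1246 and 1087. Its change at 3 h was -0.69 ± 0.19 (n = 2 against 3 arrays, adjusted p = 0.0119). Bl-1 had 889, 808 and 849 at 30 min, 772, 775 and 620.1 at 1 h, then 538, 565 and 435 at 3 h, a change of -0.51 ± 0.17 (adjusted p = 0.0304). In both the 3 h arrays lay below all 0 h arrays, but each call was lost when any of 3 arrays was left out, at -0.59 to -0.64 in Fei-0 (adjusted p = 0.0517 to 0.168) and -0.39 to -0.49 in Bl-1 (adjusted p = 0.0956 to 0.18). Col-0 stayed at 426 to 464 at 30 min and 1 h and had 367, 354 and 403 at 3 h, a change of -0.32 ± 0.17 that was not called (adjusted p = 0.214). Its 3 h arrays too lay below all those of 0 h, and the fall was called in a fit to the Col-0 arrays alone (adjusted p = 0.0062).

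Sha and C24, the accessions of low level beside Bay-0, showed no called fall in the main fit. Sha had 51.8, 67.7 and 72.5 at 30 min, 35.0, 42.2 and 43.8 at 1 h, then 49.1, 38.8 and 48.5 at 3 h. All 1 h arrays lay below those of 0 h, at -0.49 ± 0.17 (adjusted p = 0.0556), and the 3 h arrays overlapped with those of 0 h. The change at 1 h was called in a fit to the Sha arrays alone (adjusted p = 0.0431). It was also called with array weights (adjusted p = 0.0315), with the GAPDH ratio as covariate (adjusted p = 0.0459) and without replicate 2 (adjusted p = 0.0282). C24 had 25.3, 18.8 and 75.4 at 30 min against 13.8 to 17.3 at 0 h, a called rise of 0.70 ± 0.17 (adjusted p = 0.00444, with 5.03% of all probe sets called in C24). That rise rests on the array of 75.4, and without it the change was 0.28 (adjusted p = 0.524). At 1 h C24 was back at 16.6, 18.9 and 15.7, and at 3 h it had 14.9, 30.1 and 17.2.

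In the mean over accessions the change of AT2G25450 was -0.13 ± 0.07 after 30 min (adjusted p = 0.139), -0.37 ± 0.07 after 1 h (adjusted p = 4.23e-06) and -0.55 ± 0.07 after 3 h (adjusted p = 8.84e-11). Between 30 min and 1 h it was the 1 gene of the 3 called (-0.24 ± 0.07, adjusted p = 0.00516), where 23.5% of all probe sets were. With the accessions as the units of the test, the change at 1 h was not called (adjusted p = 0.121). The difference between accessions was called at each time, with ranges of 1.51 (adjusted p = 4.85e-06), 1.25 (adjusted p = 6.42e-05) and 1.56 (adjusted p = 3.59e-05). The order of levels changed little, with Fei-0 first, then Bl-1, Col-0 and Bur-0, at all 4 times.

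AOP3 changed in Bay-0. There its arrays went from 631, 775 and 768 at 0 h to 645, 464 and 539 at 30 min and 619, 632 and 465 at 1 h, which overlapped with 0 h, and then to 228, 215 and 231 at 3 h, which did not. The fall at 3 h was 1.62 on the log2 scale (-1.62 ± 0.21, adjusted p = 4.15e-09), where 20.9% of all probe sets were called in Bay-0. Bl-1 had 575, 598 and 585 at 30 min, 458, 524 and 448 at 1 h, then 422, 375 and 261 at 3 h. Its 30 min arrays lay above and its 3 h arrays below all those of 0 h, yet neither change was called, at 0.39 ± 0.21 (adjusted p = 0.224) and -0.34 ± 0.21 (adjusted p = 0.278). In a fit to the Bl-1 arrays alone the rise at 30 min was called (0.39 ± 0.12, adjusted p = 0.0327) and the change at 3 h was not (adjusted p = 0.0505).

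The means of Bay-0 and Bl-1 thus changed places, and the difference in level at 3 h was not itself tested for this pair. At 30 min the mean of Bl-1 was also the higher, at 586 ± 11.6 against 549 ± 90.7 (SD). At 1 h that of Bay-0 was the higher, at 572 ± 93.1 against 477 ± 41.3. At 3 h the mean of Bl-1, 353 ± 82.7, was 1.57 times that of Bay-0, 225 ± 8.56 (SD, n = 3). The change from 0 h differed between them by -1.27 ± 0.30 at 3 h (Bay-0 minus Bl-1, adjusted p = 0.00112, 16.4% of all probe sets called), by -0.44 ± 0.30 at 1 h (adjusted p = 0.434) and by -0.78 ± 0.30 at 30 min (adjusted p = 0.069). This pair was chosen for the test after the signals were seen. Over all 7 accessions the difference was called at 3 h only, with a range of 2.13 (adjusted p = 3.14e-07), against 1.03 after 30 min (adjusted p = 0.0636) and 0.93 after 1 h (adjusted p = 0.103). In 5 of these accessions the signal lay near or under the added constant, so they could hardly show a fall. For them the test cannot tell whether their response differed from that of Bay-0. With a constant of 1 in place of 16, which lets signals near 0 spread, the calls for AOP3 at 3 h were lost (Bay-0 -1.68, adjusted p = 0.0972, and the range over accessions 3.65, adjusted p = 0.0958). In a fit to the Bay-0 arrays alone, whose spread does not draw on accessions near 0, the fall kept its call (-1.62 ± 0.13, adjusted p = 1.98e-08).

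In the 5 accessions without AOP3 signal the changes were read under the added constant. Sha was called at 30 min (0.63 ± 0.21, adjusted p = 0.0196, 24.6% of all probe sets called in Sha), with arrays that never passed 19.7, and lost the call without any of 3 arrays (0.56 to 0.58, adjusted p = 0.0645 to 0.0787). The mean change of AOP3 over the accessions, 0.18 ± 0.08, 0.25 ± 0.08 and -0.12 ± 0.08 at the 3 later times (adjusted p = 0.0888, 0.0106 and 0.248), gives these accessions the same weight as Bay-0 and Bl-1.

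**Figure D3:**
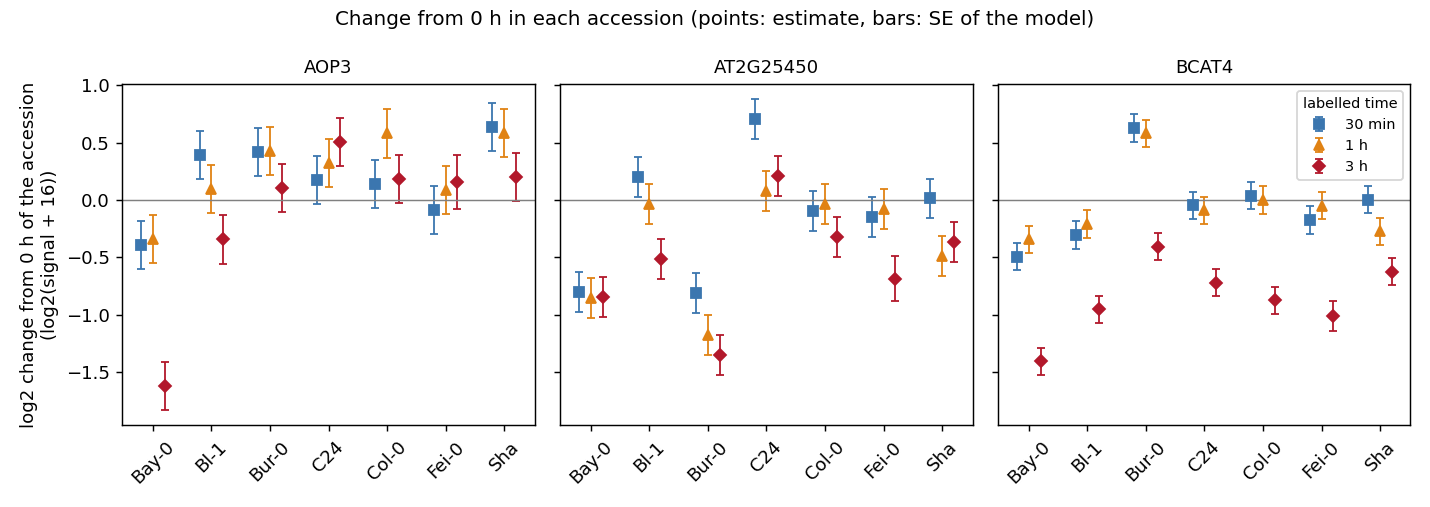
Log2 change from 0 h in each accession for the 3 genes, on the log2(signal + 16) scale. Points are the estimates of the limma model at 30 min, 1 h and 3 h and bars are their SE. BCAT4 at 3 h lies between -1.40 in Bay-0 and -0.41 in Bur-0, AOP3 falls by 1.62 in Bay-0 at 3 h, and AT2G25450 is lowest in Bur-0.

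Markers of green tissue moved over the same times. Of 7 shoot markers 2 had a probe set, LHCB4.2, a light-harvesting protein, and RCA, the Rubisco activase, and of 7 root markers EXPA7 and EXPA18, expansins of root hair cells. None was at 0 in any group. The summed group means of the shoot pair ran, in the order of the 4 times, from 2915 to 8379, 3806 to 7099, 2654 to 6118 and 2451 to 4847, and those of the root pair from 32.7 to 74.0, 53.5 to 87.2, 65.6 to 169 and 50.8 to 322. At 3 h LHCB4.2 and RCA changed by -0.61 ± 0.06 and -0.29 ± 0.05 in the mean, and EXPA7 and EXPA18 by 0.99 ± 0.08 and 0.47 ± 0.07. In Bay-0 at 3 h, where BCAT4 and AOP3 fell most, LHCB4.2 stood at 0.01 and RCA at 0.00. In Bl-1, C24, Col-0, Fei-0 and Sha, in this order, LHCB4.2 stood at -0.69, -0.62, -0.62, -0.64 and -0.22 at 3 h. RCA stood at -0.38, -0.24, -0.45, -0.12 and -0.25 in them, and BCAT4 at -0.95, -0.72, -0.87, -1.01 and -0.62. In Bur-0 LHCB4.2 changed by -0.64, -0.86 and -1.51 at the 3 times and RCA by -0.39, -0.29 and -0.58. AT2G25450 stood at -0.81, -1.17 and -1.35 there, while BCAT4 rose at the first 2 of these times. In Bay-0 at 30 min, where AT2G25450 stood at -0.80, LHCB4.2 stood at 0.38 and RCA at 0.18. EXPA7 and EXPA18 had risen in the mean at 30 min already, by 0.35 ± 0.08 and 0.19 ± 0.07. A response of the marker genes themselves and a change in the share of tissue cannot be told apart here. Whether the share of green or root tissue contributes to the changes of the 3 genes was not tested in any accession.

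The other glucosinolate genes that could be read fell with BCAT4 at 3 h. The 7 lists on regulators, chain elongation, core structure, side-chain modification, indole glucosinolates, breakdown and transport name 67 genes, of which 10 matched a probe set listed with 1 gene, and all 10 passed the filter on low signals. None of the 3 regulators of the methionine branch and none of 14 genes of the indole branch was among them, and BCAT4 was the 1 readable gene of 10 in chain elongation. Beside AOP3, AT2G25450 and BCAT4, 7 genes remained. All 7 fell at 3 h, 4 of 7 at 1 h and 1 of 7 at 30 min, and none rose, with medians of -0.33, -0.22 and -0.09. Among all probe sets 21.6%, 16.2% and 12.9% were called lower. With accessions as the units of the test, 3 of these 7 were called lower at 3 h, where 3099 of the 15922 probe sets were called in either direction.

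In core structure synthesis AT2G31790, which stands in that list, had the largest change of the 7, -0.99 ± 0.04 at 3 h (adjusted p = 7.35e-32). Its group mean went from 259.6 to 89.4 in Bay-0 and from 374 to 192.5 in Sha between 0 h and 3 h, and it was lower by 0.77 or more in every accession. UGT74B1, the glucosyltransferase that adds the sugar to the core, changed by -0.25 ± 0.06 at 1 h and -0.53 ± 0.06 at 3 h. GSTU20, a glutathione transferase, changed by -0.33 ± 0.05 at 3 h, with calls in Bay-0 and Sha (-1.02 in Sha) and none in the remaining 5 accessions, at -0.39 to 0.18. The test over accessions called this difference for GSTU20 (adjusted p = 3.56e-08).

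AOP1, of the same gene family as AOP3, was read at low group means of 23.4 to 105.5 and changed by -0.23 ± 0.06 at 3 h (adjusted p = 0.00111). PYK10, a beta-glucosidase of the endoplasmic reticulum bodies, changed by -0.14 ± 0.04. The transporters GTR1 and GTR2, which load glucosinolates into the phloem, had fallen by 1 h already, by -0.29 ± 0.05 and -0.50 ± 0.04, and stood at -0.30 ± 0.05 and -0.38 ± 0.04 at 3 h, as means over accessions. The accessions differed for both at 3 h (adjusted p = 3.66e-06 for GTR1 and 6.18e-05 for GTR2). GTR1 stood at -0.83 in Bay-0, at 0.08 in Bl-1 and at 0.30 in Col-0, where it had been at 0.58 and 0.29 at the earlier times, and GTR2 ran from -0.66 in Bur-0 to 0.11 in Sha. GTR2 was the gene called at 30 min (-0.20 ± 0.04, adjusted p = 2.16e-05).

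**Figure D4:**
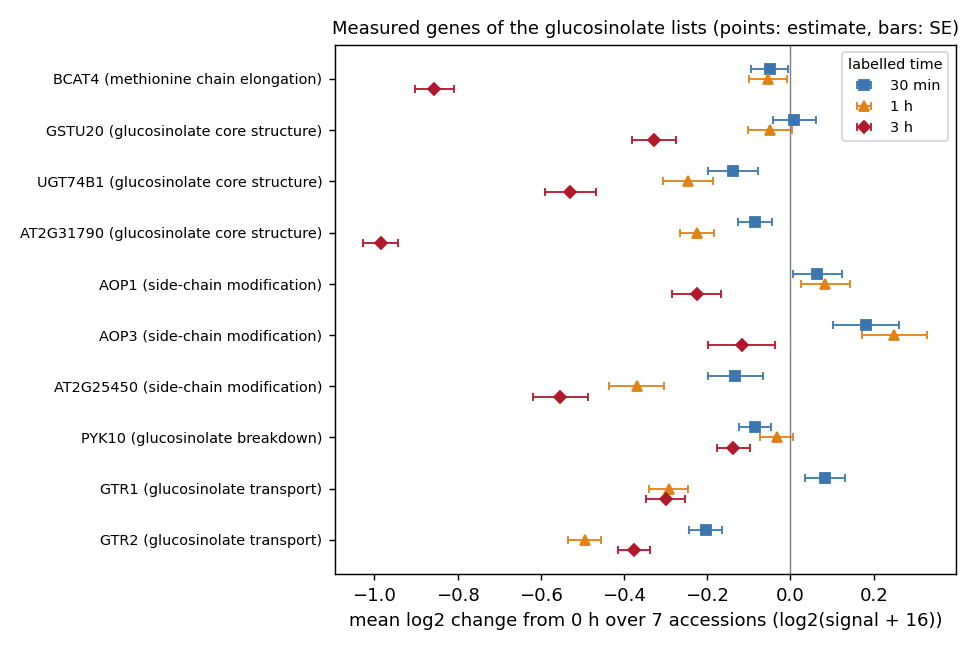
Mean log2 change from 0 h over the 7 accessions for the 10 measured genes of the glucosinolate lists, on the log2(signal + 16) scale. Points are the estimates at 30 min, 1 h and 3 h and bars are their SE. At 3 h AT2G31790 (-0.99) and BCAT4 (-0.86) lie farthest to the left.

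Genes of the lists on sulfur and on regulators, and genes that resemble BCAT4, moved in different ways. APS3, an ATP sulfurylase, rose in the mean at 30 min and 1 h by 0.47 ± 0.05 and 0.25 ± 0.05 and fell at 3 h to -0.62 ± 0.06. Its changes differed between accessions at each time (F test, adjusted p = 0.0166, 0.0205 and 0.00277). AT1G04770 (SDI2), which was placed in the same list on sulfur, was at -0.64 ± 0.05, -0.08 ± 0.05 and -0.99 ± 0.05 at the 3 times. Its mean at 1 h joins 0.39 in Bay-0 and 0.37 in C24 with -0.60 in Bl-1 and -0.51 in Sha (F test over accessions, adjusted p = 2.24e-06). The transcription factor MYC4 changed by -0.37 ± 0.06 at 3 h and MYC3 by -0.05 ± 0.05, which was not called (adjusted p = 0.423). Of the other branched-chain aminotransferase genes, ATBCAT-5 and AT1G50110 had means of 0.03 ± 0.06 and 0.03 ± 0.05 at 3 h, neither called, where BCAT4 stood at -0.86. The mean of AT1G50110 joins opposite changes, since it fell in Bay-0 (-0.40, adjusted p = 0.0249) and Sha (-0.38, adjusted p = 0.0364) and rose in Bur-0 (0.53, adjusted p = 0.00113) and Col-0 (0.45, adjusted p = 0.0101). The test over accessions called this difference (adjusted p = 2.83e-05).

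With the mean of each accession taken away, the gene most like BCAT4 over the 28 group means was AT2G31790 (r = 0.96), of 8673 single-gene probe sets set against it. AT1G21440 followed (r = 0.95), then AT3G03770 (r = 0.94), CBL, the cystathionine beta-lyase of methionine synthesis (r = 0.93), and SWEET17 (r = 0.93). The 3 h groups of BCAT4 and AT2G31790 lie apart from all others, so these correlations rest in large part on the difference between 3 h and the earlier times, and groups share accessions and times. With accession means kept in, AT1G21440 was nearest to BCAT4 (r = 0.89).

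For the side-chain genes the most similar patterns over the 28 group means were those of AT3G09960 for AOP3 (r = 0.87), with group means of 4.85 to 45.6, and AT5G22700 for AT2G25450 (r = 0.92), with group means of 7.05 to 45.4. With accession means taken away the nearest were AT3G48450 for AOP3 (r = 0.71) and AT4G09760 for AT2G25450 (r = 0.87). Between the 3 genes themselves these correlations were r = 0.18 for AOP3 with AT2G25450, r = 0.48 for AOP3 with BCAT4 and r = 0.48 for AT2G25450 with BCAT4.

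**Figure D5:**
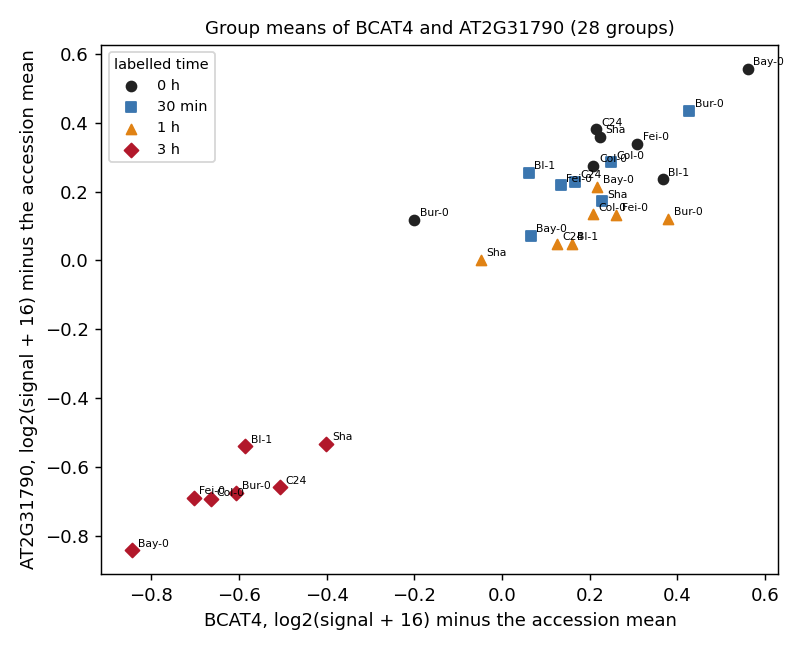
Group means of BCAT4 (horizontal axis) and AT2G31790 (vertical axis) in log2(signal + 16), each minus the mean of its accession, with 1 point for each of the 28 groups. The 7 groups of 3 h lie together at the lower left, and Bay-0 lies at both ends, highest at 0 h and lowest at 3 h.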

How the data were processed

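Whole seedlings were measured on ATH1 arrays. The deposited table held 1 linear signal intensity for each probe set of each array. It came from MAS5 and GCOS, per the submitters' processing notes, which name no versions. Each array's trimmed mean, without the lowest and highest 2%, was 100.01. Samples were grouped by the accession and time in their titles. From 22810 probe sets, 64 controls and the dimmest 30% (6824) were removed, and 15922 were tested. Values were taken as log2(signal + 16) and fitted in limma 3.58.1 (R 4.3.3) with 1 mean per group, a trended prior, 55 residual and 13.2 prior degrees of freedom, and Benjamini-Hochberg adjustment over all probe sets. All tests were two-sided or F tests. In gene lists the brightest probe set stood for a gene. The named genes were the 3 genes, the measured members of the pathway lists, and the most similar patterns. The genes and lists were chosen with earlier results of these data known. The fit was tested on simulated data. Alternatives changed the pseudocount, filter, scaling, prior, array weights, RNA-quality covariate, replicate block, and arrays or accessions left out. Arrays give no read depth, and their number limits the precision. Replicate numbers did not pair the samples.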

Additional observations from a re-analysis of the deposited data

Results flagged for a closer look

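For 7 results the accessions differed in their change from 0 h by the F test in limma, over ranges given on the log2 scale. AOP3 did so at 3 h, with a range of 2.13 (adjusted p = 3.14e-07) between -1.62 in Bay-0 and 0.51 in C24. C24 is among the 5 accessions with AOP3 signals near or under the added constant, which could hardly show a fall. AT2G25450 did so at 30 min, 1 h and 3 h, with ranges of 1.51, 1.25 and 1.56. Its lowest changes were in Bur-0 and its highest in C24, and at 30 min the C24 value rests on 1 array. BCAT4 did so at 30 min, 1 h and 3 h, with ranges of 1.12, 0.92 and 1.00, between Bur-0 at the upper end and Bay-0 at the lower end. Among all probe sets 29.9%, 21.8% and 32.4% were called in these tests.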

How the results depend on the processing

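No result called in the main fit or in an alternative reversed its direction between the 2. Changes of sign in results called in neither were not counted. For BCAT4 the mean change at 3 h, the step from 1 h to 3 h and the F tests over accessions of its changes kept their calls under every setting run, and so did the F tests over accessions of the level of all 3 genes. Single pairs at 0 h did not all do so, among them AOP3 in Bay-0 against Bl-1 with a pseudocount of 1 (0.70) or without replicate 2 (0.60), AT2G25450 in Bl-1 against Col-0 without replicate 1 (0.46), and BCAT4 in Sha against Bay-0, Fei-0 against Col-0, and Bur-0 against C24, Bl-1 and Fei-0. Without Bur-0 the mean change of BCAT4 was called at 30 min and at 1 h (-0.16 and -0.16). For AT2G25450 the mean change at 30 min was called without Bl-1 (-0.19), without C24 (-0.27), with array weights (-0.18), without replicate 3 (-0.23, against -0.074 without replicate 1) and without 1 array in turn (-0.19 to -0.09). Its change at 1 h was not called with accessions as units (-0.37). Its step from 1 h to 3 h was not called with the GAPDH ratio as covariate (-0.16), with a pseudocount of 1 (-0.18), without replicate 1 (-0.17) or 3 (-0.18), or without 1 array (-0.21 to -0.17), and its step from 30 min to 1 h not without replicate 3 (-0.15, against -0.29 without replicate 1). For AOP3 the mean change at 30 min was called without Bay-0 (0.28), Fei-0 (0.23) or replicate 3 (0.33, against 0.062 without replicate 1) and without 1 array in turn (0.15 to 0.22), and at 3 h without C24 (-0.22), with a pseudocount of 64 (-0.20) or without replicate 1 (-0.31, against -0.014 without replicate 3). At 1 h it was not called without Col-0 (0.20) or Sha (0.19), with accessions as units (0.25), a pseudocount of 64 (0.06), or without replicate 1 (0.19) or 2 (0.23), and it was 0.33 without replicate 3. Its step from 1 h to 3 h was not called with a pseudocount of 1 (-0.60) or without replicate 2 (-0.26, against -0.50 without replicate 1). The range over accessions of its change at 30 min was called with array weights (1.12), the GAPDH ratio (1.11), a pseudocount of 64 (0.72), quantile normalization (1.08) and without 1 array (0.92 to 1.15), at 1 h with array weights (1.07) and a pseudocount of 64 (0.52), and at 3 h not with a pseudocount of 1 (3.65). The difference between Bay-0 and Bl-1, added after the data were seen, was called at 30 min with array weights (-0.85), median centring (-0.86), a pseudocount of 64 (-0.72) or without 1 array (-0.90 to -0.67), lay at -0.98 to -0.57 without a replicate number, and at 3 h not with a pseudocount of 1 (-1.32). Of the 7 other glucosinolate genes 3 fell at 3 h and 0 at 30 min with accessions as units, 2 fell at 30 min without Bl-1, Bur-0 or Sha, and 1 rose at 30 min without Bur-0. The number of all probe sets called in the mean at 30 min, 1 h and 3 h, 3759, 4979 and 6973, was 831, 1832 and 3099 with accessions as units, and at 30 min it was 2390 without replicate 1. The filter at 50% removed AOP3. The cause of these changes was not tested.

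With the replicate number as a block, BCAT4 at 3 h had a mean change of -0.85 (adjusted p = 3.97e-25), and the block turned no call of a mean change. It added calls for BCAT4 in Bay-0 at 1 h, in Bl-1 at 30 min and for Bay-0 against Fei-0 at 0 h. Over 123 pairs of arrays with the same number in different groups of an accession the correlation of deviations was -0.348 to 0.255 (median 0.01), 18 of them above 0.1, so the numbers were not taken to pair the samples. Signals near the added constant, AOP3 in 5 accessions and AT2G25450 in C24, set the limit of what can be read.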
